A study of Mus musculus with 48 samples.

Results

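The first hour of Activin signalling was followed here in chromatin accessibility, by setting the list of accessible regions in P19 cells after 1 h Activin against the list in cells held in SB-431542. Peaks of the lists that shared 1 bp or more were joined, which gave 260173 regions. A peak in both lists was found in 203388, called shared, 27817 had a peak at 1 h alone and 28968 had a peak with SB-431542 alone. Across all 4 lists of the study the same joining gave 287329 regions.

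P19 is a mouse embryonic teratoma cell line that makes its own NODAL and GDF3, so untreated cells signal chronically. In both states compared, P19 cells had first been kept overnight in 10 µM SB-431542, which blocks the type I receptors of Activin, NODAL and TGF-β. They were then washed and given either 20 ng/ml Activin A in full medium for 1 h, or SB-431542 in full medium for the same time. An 8 h Activin state and an untreated state are used only as a scale. ATAC-seq was run on 100000 cells per reaction, and the labels list 12 libraries per state, 6 for each of 2 biological replicates. The methods describe a single library picked per state and replicate, and whether the 6 are repeat sequencing of it is not given in the sources used here.

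The authors deposited 1 list per state, called after its replicates were merged. No spread between replicates can be given, and every difference below is a difference between 2 lists, with no test. P19 is a single line, and because whole cultures were measured, a change in a few cells and a smaller change in every cell cannot be told apart. All 16 pluripotency genes examined, *Pou5f1*, *Sox2* and *Nanog* among them, had a shared region within 10 kb of a transcription start site (TSS), but so had 12 of 14 blood, muscle and liver genes. Presence of a region therefore did not separate the labelled cell type from others.

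Activin and NODAL bind paired type II and type I receptors, which phosphorylate SMAD2 and SMAD3. These join SMAD4, enter the nucleus and bind short GTCT elements, often next to a partner such as the forkhead factor FOXH1. Early targets include the feedback inhibitors *Lefty1*, *Lefty2*, *Smad7* and *Pmepa1*, and ATAC-seq reads how far the DNA at such sites is open to a transposase.

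The sequences printed here come from 6 regions whose signal was higher after 1 h. They are the peaks at the *Lefty1* and *Pmepa1* SMAD-binding sites (SBSs), a region within the *Pmepa1* gene, and 3 of the 4 largest rises among strongly enriched regions. The other of these rises, near *Becn2*, is not printed. The SBSs were placed by the distance from the TSS that the study gives. Each sequence is 300 bases of the plus strand of GRCm38 (mm10), taken at the middle of the peak except at the *Pmepa1* SBS. There the window is centred on the region's single match to the forkhead (FOX) motif GTAAACA, the element through which the study describes this site, a choice made after the data were seen. Capitals mark a match, on either strand, to that motif, to the FOXH1 motif AATNCACA or to the SMAD palindrome GTCTAGAC, which is made of a GTCT element and its reverse complement.
Lefty1 SBS, chr1:180924864-180925163: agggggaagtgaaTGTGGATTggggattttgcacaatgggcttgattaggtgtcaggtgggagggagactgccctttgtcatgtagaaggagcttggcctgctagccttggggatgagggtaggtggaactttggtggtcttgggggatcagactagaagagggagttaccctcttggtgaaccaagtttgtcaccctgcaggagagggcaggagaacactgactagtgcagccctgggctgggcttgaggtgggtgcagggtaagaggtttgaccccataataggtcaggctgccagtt
Pmepa1 SBS, chr2:173334927-173335226: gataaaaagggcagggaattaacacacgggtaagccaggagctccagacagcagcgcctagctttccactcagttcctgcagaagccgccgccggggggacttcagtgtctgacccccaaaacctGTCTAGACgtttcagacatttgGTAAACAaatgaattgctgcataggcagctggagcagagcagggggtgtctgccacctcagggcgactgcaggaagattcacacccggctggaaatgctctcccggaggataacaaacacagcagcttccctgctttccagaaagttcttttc
Pmepa1 gene body, chr2:173258082-173258381: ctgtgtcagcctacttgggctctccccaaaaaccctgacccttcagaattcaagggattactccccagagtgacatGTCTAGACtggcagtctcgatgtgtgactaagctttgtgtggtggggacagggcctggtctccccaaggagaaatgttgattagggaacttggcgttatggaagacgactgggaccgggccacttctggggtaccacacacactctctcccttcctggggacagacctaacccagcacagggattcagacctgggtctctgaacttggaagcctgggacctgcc
Bmpr1b intron, chr3:141857181-141857480: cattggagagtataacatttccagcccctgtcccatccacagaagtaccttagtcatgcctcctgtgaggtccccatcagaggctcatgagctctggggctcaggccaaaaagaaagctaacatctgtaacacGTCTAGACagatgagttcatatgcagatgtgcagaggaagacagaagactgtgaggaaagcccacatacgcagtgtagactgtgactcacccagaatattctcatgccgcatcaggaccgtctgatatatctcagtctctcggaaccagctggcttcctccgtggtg
Prdm1 downstream, chr10:44392043-44392342: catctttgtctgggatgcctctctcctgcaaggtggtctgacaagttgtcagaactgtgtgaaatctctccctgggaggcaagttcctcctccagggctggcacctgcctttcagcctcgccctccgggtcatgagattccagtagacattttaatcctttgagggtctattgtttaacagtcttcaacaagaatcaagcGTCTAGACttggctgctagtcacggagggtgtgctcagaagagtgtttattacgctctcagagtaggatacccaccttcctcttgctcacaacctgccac
Slco1b2 downstream, chr6:141693677-141693976: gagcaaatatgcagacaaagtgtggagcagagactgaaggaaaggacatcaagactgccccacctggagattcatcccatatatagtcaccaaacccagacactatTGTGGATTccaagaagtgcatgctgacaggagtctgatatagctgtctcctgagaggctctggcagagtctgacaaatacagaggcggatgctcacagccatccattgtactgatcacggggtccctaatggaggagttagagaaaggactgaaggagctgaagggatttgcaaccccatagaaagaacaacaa
The *Lefty1* SBS and the *Slco1b2* sequence each held 1 FOXH1 match and no palindrome. The *Pmepa1* gene body, *Bmpr1b* and *Prdm1* sequences each held 1 palindrome and no FOXH1 match. The *Pmepa1* SBS sequence held 1 GTAAACA and 1 palindrome, whose starts are 22 bp apart, and no FOXH1 match. The only FOXH1 match of that whole region lay 472 bp from the GTAAACA, outside the printed window. GTCT elements on either strand numbered 3 in the *Lefty1* SBS, 6 in the *Pmepa1* SBS, 8 in the *Pmepa1* gene body and 7 in each of the other 3. These 6 do not stand for all rises. Of the 217 regions whose fold enrichment was at least 1.5-fold higher, 156 held neither the FOXH1 motif nor the palindrome.

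The value compared is the fold enrichment that the peak caller gave each peak, the ratio of reads over the peak to the local background, averaged across the peak. Where a region held several peaks, the highest was taken. The SB-431542 list had 234758 peaks over 183.3 Mb and the 1 h list 233336 peaks over 186.0 Mb. Read totals are not in the lists, but the lowest local background that the values allow was 29.3 reads per bp with SB-431542 and 27.2 after 1 h, or 93.0% of it. The median ratio of the fold enrichments over shared regions was 0.956, and all differences below were divided by this median.

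Few regions moved far within the hour. The fold enrichment of 217 shared regions, 0.107% of 203388, was at least 1.5-fold higher after 1 h, and that of another 217, also 0.107%, was at least 1.5-fold lower. These are called risen and fallen. The SD of the log2 differences over shared regions was 0.16. As a scale, the 8 h Activin and untreated lists differed more from each other. Over the 182940 regions they shared the SD was 0.20, with 0.745% at least 1.5-fold higher at 8 h and 0.383% at least 1.5-fold lower. Both lists were shallower, with lowest local backgrounds at 79.6% (8 h) and 85.6% (untreated) of that with SB-431542. How far depth added to their difference was not tested. At a smaller threshold of 1.25-fold the hour was not symmetrical, with 3727 regions (1.83%) higher and 6669 (3.28%) lower. Without division by the median, 122 regions were at least 1.5-fold higher and 553 lower.

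The strongly enriched regions were taken as the 10% with the highest mean of both values, 20339 regions from 4.64 upwards. Among these 15, or 0.0737%, were risen and 43, or 0.211%, were fallen. At 1.25-fold 178 strong regions (0.875%) were higher and 781 (3.84%) lower. The scale pair leaned the other way, since 1.43% of its 18294 strong regions were at least 1.5-fold higher at 8 h than in untreated cells and 0.191% lower. Division by a single median left an offset by strength at 1 h. The median log2 difference was 0.062 in the weakest 10% of shared regions, -0.039 in part 8 of 10 and -0.02 in the strongest 10%. Of the weakest 10%, 0.482% were at least 1.25-fold higher and 0.00492% lower. The part of this offset in the counts was not tested. By the pileup that the lists imply, the reads over a peak before division by the background, the direction turned for strong regions past 1.5-fold, with 39 higher and 8 lower. It did not turn for strong regions as a whole, of which 4235 had a scaled pileup difference above 0 and 16104 below, with a median log2 difference of -0.11. Over all shared regions 497 (0.244%) were higher by that measure and 154 (0.0757%) lower, after division by its own median ratio of 0.872.

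**Figure D1:**
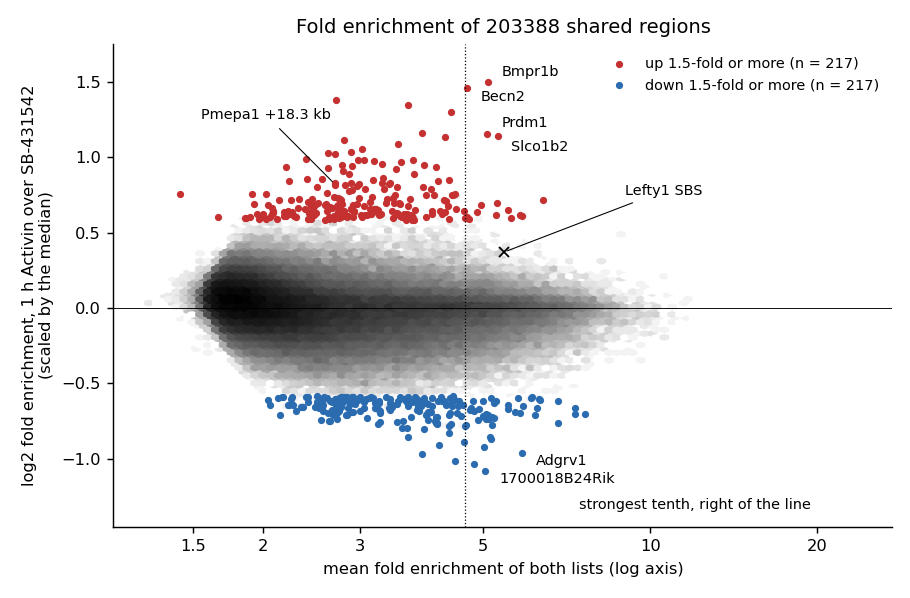
Each shared region by its mean fold enrichment in both lists (x, log axis) and its scaled log2 difference (y, 1 h Activin over SB-431542), with grey shading for the density of regions and coloured points for the 217 risen and 217 fallen ones. The *Bmpr1b* region, 2.83-fold higher, stands at the top, the *Lefty1* SBS (cross) at 0.37, and the dotted line marks the start of the strongest 10% at 4.64.

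Among strong regions the largest rise lay in an intron of *Bmpr1b*, which encodes a type I BMP receptor, 74.1 kb downstream of its TSS (chr3:141857014-141857647). Its fold enrichment was 2.75 with SB-431542 and 7.44 after 1 h, beside 4.00 at 8 h and 4.82 in untreated cells, a scaled ratio of 2.83. The 1 h value was thus the highest of the 4. Its width went from 461 to 634 bp.

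The next rise was 119 kb downstream of *Becn2*, in an intron of *Pld5*. There 1 weak peak of 3878 bp at 2.57 stood with SB-431542, and 2 peaks of 877 bp in all, the higher at 6.76, stood after 1 h. The 8 h and untreated values, 6.95 and 6.00, were close to that after 1 h. A region 66.6 kb downstream of *Prdm1* (chr10:44391821-44392567) went from 3.25 to 6.92, with 6.64 at 8 h and 5.01 untreated. *Prdm1* encodes a zinc-finger transcriptional repressor that acts in germ cell and mesendoderm development. A region 64.3 kb downstream of *Slco1b2* (chr6:141693440-141694214), a liver anion transporter gene, went from 3.41 to 7.19, with 8.22 at 8 h and 7.14 untreated.

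The widths of the *Prdm1* and *Slco1b2* peaks hardly moved, from 655 to 745 bp and from 734 to 775 bp. The remaining 6 of the 10 largest strong rises were smaller, with log2 differences from 0.62 to 0.72. They lay 41.3 kb upstream of *Glrx* (4.97 to 7.81), a glutaredoxin gene, in an intron of *Lrp1b* (4.16 to 6.43), 42.0 kb from *Foxo6os* (3.90 to 5.98), 97.6 kb from *Slc5a8* in an intron of *Ano4* (4.42 to 6.63), 106 kb upstream of *Svil* (3.92 to 5.83), which encodes an actin-bundling protein, and in an intron of *Maml3* (4.73 to 6.93), a Notch coactivator gene. All 10 were at least 41.3 kb from the nearest TSS, and the gene named is only the nearest one. With peaks averaged by width, the *Glrx* and *Maml3* differences reversed, to -0.08 and -0.02, and that of *Lrp1b* went from 0.69 to 0.18.

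Falls among strong regions were often accompanied by a wider peak. The median width of the 43 went from 626 bp with SB-431542 to 1678 bp after 1 h, while the median fold enrichment went from 6.66 to 3.83. In 35 of them the summed width was at least 1.25-fold larger after 1 h and in none was it smaller by that factor, against 7.34% larger and 8.99% smaller over all strong regions. Of the 15 risen strong regions, 3 were wider, 6 narrower and 6 within 1.25-fold. As the value is an average across the peak, width and fold enrichment are not independent measures. The fold enrichment above 1, averaged by width and multiplied by the width, was higher after 1 h in 27 of the 43 fallen strong regions. Without scaling by the median, as here, it was higher in 10 of the 15 risen ones and in 3514 of all 20339. A fall in fold enrichment is thus not always a loss of summed signal.

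**Figure D2:**
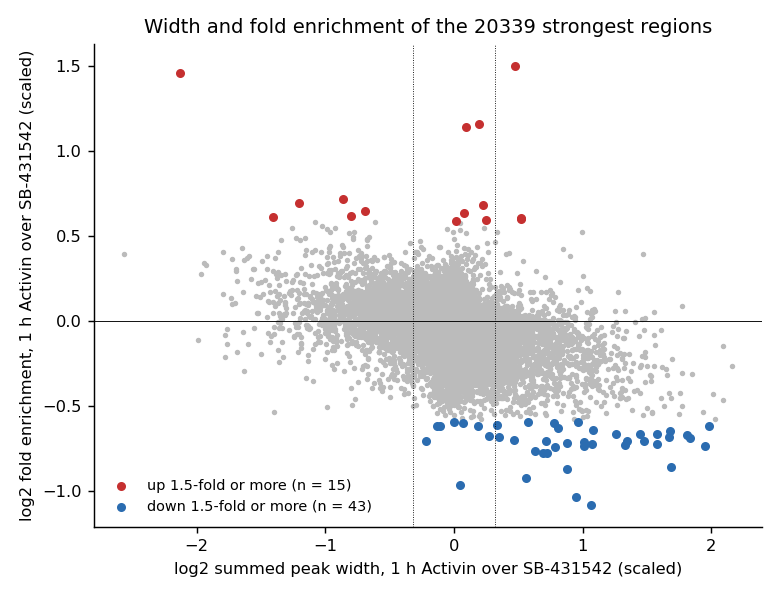
The 20339 strong regions by scaled log2 difference in summed peak width (x) and in fold enrichment (y), 1 h Activin over SB-431542, with the 15 risen and 43 fallen regions coloured and dotted lines at a width difference of 1.25-fold. Fallen regions gather at the right, where peaks were wider after 1 h, and 8 of them lie between the dotted lines.

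The largest strong fall was 304 kb upstream of *1700018B24Rik*, from 6.93 to 3.14 as 2 peaks of 1250 bp in all gave way to 1 of 2598 bp. At 8 h and in untreated cells the region held 2 peaks, with values of 7.20 and 6.06. Near *Gm17019* the value went from 6.55 to 3.06 as the width grew from 1030 to 1969 bp, and was 3.61 at 8 h and 3.41 in untreated cells. In an intron of *Lpp*, a gene for a focal adhesion protein, 37.2 kb from *Morf4l1-ps1*, it went from 6.72 to 3.54 and the width from 561 to 1794 bp. The 9 largest falls also took in *Efhd1*, *Fsip2*, *Abca8b*, *Gm4265* and *Me3*, with scaled log2 differences from -0.92 to -0.76, each with a wider region after 1 h. Averaged by width, only the *Lpp* intron kept its log2 difference, -0.86. *Abca8b* and *Me3* reversed, to 0.08 and 0.16, and *1700018B24Rik*, *Gm17019*, *Efhd1*, *Fsip2* and *Gm4265* shrank to between -0.18 and -0.12.

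A smaller set fell at a steady width. The region 7.27 kb upstream of *Adgrv1*, an adhesion receptor gene, went from 7.88 to 3.86 with summed widths of 2394 and 2454 bp, although 2 peaks had become 1. Averaged by width its log2 difference was -0.31, against -0.96 by the higher peak. It stayed low at 8 h (3.27) and in untreated cells (3.44). A region 55.5 kb from *Mirg*, a host transcript of microRNAs in the imprinted *Dlk1*-*Dio3* domain, went from 9.62 to 5.65 with a single peak of 793 and then 675 bp, and was lower still at 8 h (2.25) and untreated (3.24). A region in an intron of *Grk4*, 47.7 kb upstream of *Htt*, went from 6.16 to 3.83. There the untreated value, 5.80, was near that with SB-431542. With width held within 1.25-fold, 72 of 135860 shared regions (0.0530%) were risen and 71 (0.0523%) fallen.

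Width alone moved in more regions than fold enrichment did. The summed width was at least 2-fold larger after 1 h in 10760 regions (5.29%) and at least 2-fold smaller in 8709 (4.28%). This was mostly a property of weak regions, since 18.9% of the weakest 10% and 2.27% of the strongest 10% changed by 2-fold in either direction. Among strong regions the largest gains were near *Gm47415* (856 to 3798 bp), *Gm30948* (486 to 2058 bp), *Arhgef38* (413 to 1745 bp), *Nt5el* (408 to 1650 bp) and *9130015A21Rik* (454 to 1820 bp). All 5 had a lower fold enrichment after 1 h, with scaled log2 differences from -0.57 to -0.15. The largest losses were near *Lyplal1* (3040 to 510 bp), *Becn2*, *Spata45* (2311 to 576 bp), *Stk32c* (1828 to 463 bp) and *Gipc2* (2111 to 543 bp).

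Both measures moved by at least 1.25-fold upwards in 793 regions (0.390%) and downwards in 973 (0.478%). By this count too the shares were larger in the scale pair, at 1.21% and 1.26%, whose lists had a lower estimated depth.

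The share of regions that changed was lower close to a TSS. Of 16071 shared regions within 1 kb of a TSS, 0.479% were at least 1.25-fold higher after 1 h (95% Wilson interval 0.384 to 0.598) and 1.02% lower (0.876 to 1.19). Of 162902 distal regions, over 10 kb away, 1.96% were higher and 3.39% lower (3.30 to 3.47). The Wilson intervals cover counting error only. At 1.5-fold 4 proximal regions (0.0249%) were risen and 7 (0.0436%) fallen, against 183 (0.112%) and 170 (0.104%) distal ones.

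The contrast held among strong regions, whose median fold enrichment with SB-431542 was 5.80 within 1 kb and 5.72 beyond 10 kb. None of 6776 strong proximal regions was risen or fallen, which allows a share of up to 0.0567% by the Wilson interval, while 15 (0.129%) of 11636 strong distal regions were risen and 35 (0.301%) fallen. At 1.25-fold 0.162% of strong proximal regions were higher and 0.546% lower, against 1.27% and 5.63% of strong distal ones. Widening by 2-fold likewise went from 0.859% within 1 kb to 7.47% beyond 500 kb, although regions far from a TSS were also weaker, with a median fold enrichment of 2.05 with SB-431542 beyond 500 kb and 4.41 within 1 kb. In estimated pileup the median log2 difference was -0.13 within 1 kb and 0.02 over 10 kb.

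Motif matches differed between risen and fallen regions. In the 300 bases at the centre of the strongest 1 h peak, searched on both strands, the SMAD palindrome was found in 19 of the 217 risen regions, 8.76% (95% Wilson interval 5.68 to 13.3), in 1 of the 217 fallen regions, 0.461% (0.0814 to 2.56), and in 0.278% of all shared regions. The FOXH1 motif was found in 44 risen regions, 20.3% (15.5 to 26.1), in 13 fallen regions, 5.99% (3.53 to 9.98), and in 5.26% of all. Both motifs occurred together in 2 risen regions, and 61 risen regions, 28.1%, held at least 1 of them. No window at the SB-431542 peak was searched. The median summed width of fallen regions went from 566 bp with SB-431542 to 849 bp after 1 h, so their window may miss part of the earlier peak.

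The shares followed the size of the change on the rising side alone. The palindrome stood in 0.237% of regions within 1.1-fold, in 0.397% of those 1.1 to 1.25-fold higher and in 1.05% of those 1.25 to 1.5-fold higher. For FOXH1 the same steps gave 5.11%, 6.26% and 7.72%. Among regions 1.1 to 1.25-fold and 1.25 to 1.5-fold lower the palindrome stood in 0.199% and 0.248%, and FOXH1 in 4.81% and 4.17%. In risen regions of steady width the shares were 9.72% for the palindrome and 18.1% for FOXH1, against 0.263% and 5.00% of all regions of steady width. In the 71 fallen regions of steady width they were 0% and 1.41%.

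**Figure D3:**
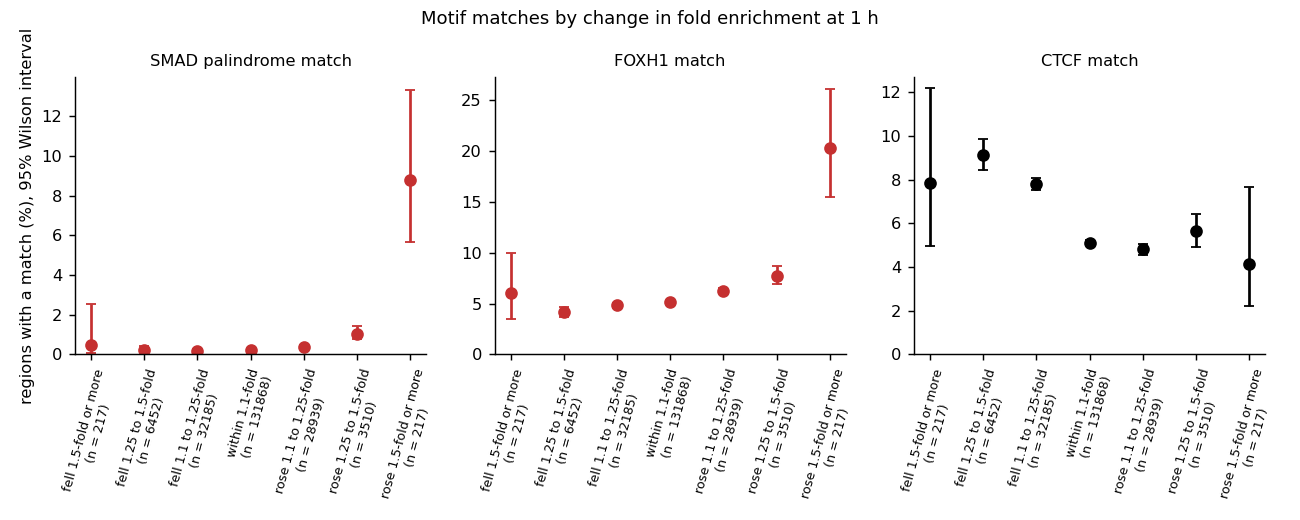
Percentage of shared regions with a match to the SMAD palindrome, FOXH1 or CTCF motif within 300 bases (y), in 7 classes of change in fold enrichment from at least 1.5-fold lower to at least 1.5-fold higher (x), with 95% Wilson intervals. The palindrome stands at 8.76% and FOXH1 at 20.3% in the last class, while CTCF stands at 4.15% there.

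Other letters moved in both directions. A GC-rich SMAD motif, GGCGCC, was found in 0.922% of risen regions, 1.84% of fallen ones and 3.49% of all. Of risen regions 1.84% lay within 1 kb of a TSS, against 7.90% of all. Among distal regions the motif stood in 1.47% of those at least 1.25-fold higher, 2.39% of those lower and 1.64% of all. The SOX motif ACAATGG was found in 12.9% of risen regions and 5.38% of all. This lay partly in repeats, since SOX stood in 7.74% (4.58 to 12.8) of risen regions with under 50% repeat sequence and in 30.6% of the rest, against 5.31% of all regions with under 50% repeat. The AP-1 motif TGANTCA was found in 18.9% of risen, 6.91% of fallen and 13.0% of all. At steady width it stood in 18.1% of risen and 2.82% of fallen regions. The FOX motif GTAAACA was found in 4.15% of risen regions and 4.25% of all. The single GTCT element, present in 91.2% of all windows, was too common to separate the sets, but its mean number was 3.92 per window in risen regions and 2.59 over all.

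The 19 risen regions with a palindrome lay near genes of varied kinds. Besides *Bmpr1b*, *Prdm1*, *Svil* and the *Pmepa1* gene body they included a region 62.4 kb upstream of *Inhba*, the gene for the Activin A subunit, with 2.16 and 3.31 and no peak at 8 h or in untreated cells. Near *Gm815* the value was 2.47, then 4.62 after 1 h and 2.56 at 8 h, back near its start. Near *Trpm7*, a gene for a cation channel with a kinase domain, it was 1.86, 3.38 and 6.12, so the 8 h value was the highest. The other named genes were *Tut7*, *Gm10389*, *Dcbld2*, *Prkg2*, *Vwc2l*, *Rdx*, *Efna5*, *Gm14486*, *Grm7*, *Kcnmb4os1*, *Zfp819* and *Gm29686*, with 1 h values from 3.26 to 6.62.

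Set against 8 h Activin, the motif classes differed in how many regions stayed nearer to the 1 h value, a count that takes in values above it. Of 43 risen regions with FOXH1 and a peak at 8 h, 38 had an 8 h fold enrichment nearer to the 1 h value than to the SB-431542 value. Of 17 with the palindrome, 8 did, and of 140 with neither motif, 95 did. Their median fold enrichments at SB-431542, 1 h and 8 h were 2.34, 3.75 and 4.44 with FOXH1 and 2.30, 3.58 and 3.20 with the palindrome. The difference between the classes was not tested, and part of the FOXH1 class consists of copies of the same sequences, as given next.

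Some FOXH1 matches were copies of one another. Of the 44 risen FOXH1 regions, 17 belonged to a pair of repeat families, found by their likeness in 38 bases around the match, with at least 28 identical to the seed copy. The families were defined after the values were seen, so their counts are a description. Seeds were taken from risen regions, and a family was kept only where several risen regions matched, so many risen copies are built in. The seed copies below, with the FOXH1 match in capitals, are from GRCm38.
Family 1, near Gm12069, chr11:25240741-25240778, minus strand: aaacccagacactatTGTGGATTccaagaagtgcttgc
Family 2, near Cldn34d, chrX:76687063-76687100, plus strand: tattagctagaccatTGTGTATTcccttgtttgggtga
Family 1 had 37 shared regions, of which 30 had a scaled log2 difference above 0, 14 (37.8%) were at least 1.25-fold higher, 8 (21.6%) were risen and 0 were 1.25-fold lower. Family 2 had 209, of which 171 were above 0, 37 (17.7%) at least 1.25-fold higher, 9 (4.31%) risen and 0 at least 1.25-fold lower. Over all shared regions 1.83% were at least 1.25-fold higher, 0.107% risen and 3.28% at least 1.25-fold lower. Family 1 regions were weak, with a median fold enrichment of 1.85 with SB-431542. Falls were rare among weak regions, at 0.290% and 1.05% of parts 2 and 3 of 10 by strength. A SOX match stood in the window of 178 of the family 2 regions and of 1 family 1 region.

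The risen copies of family 1 were higher still at 8 h. At *Gm12069* the fold enrichment was 2.47 with SB-431542, then 5.28 after 1 h, 7.07 at 8 h and 6.14 untreated. At *Gm45952* the same 4 values were 1.83, 3.77, 7.09 and 6.57, and at *Pla2g4a* 2.18, 3.55, 7.30 and 5.83. The *Slco1b2* region is also a copy. In all 8 risen copies the 8 h value was the highest and the SB-431542 value the lowest, and the untreated value lay above the 1 h value in each but *Slco1b2*, at 7.14 and 7.19. Without repeat-rich windows, in the 168 risen regions with under 50% repeat sequence, the palindrome stood in 10.1% and FOXH1 in 14.3%. Reads placed between near-identical copies are uncertain, and their part in these values was not tested.

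**Figure D4:**
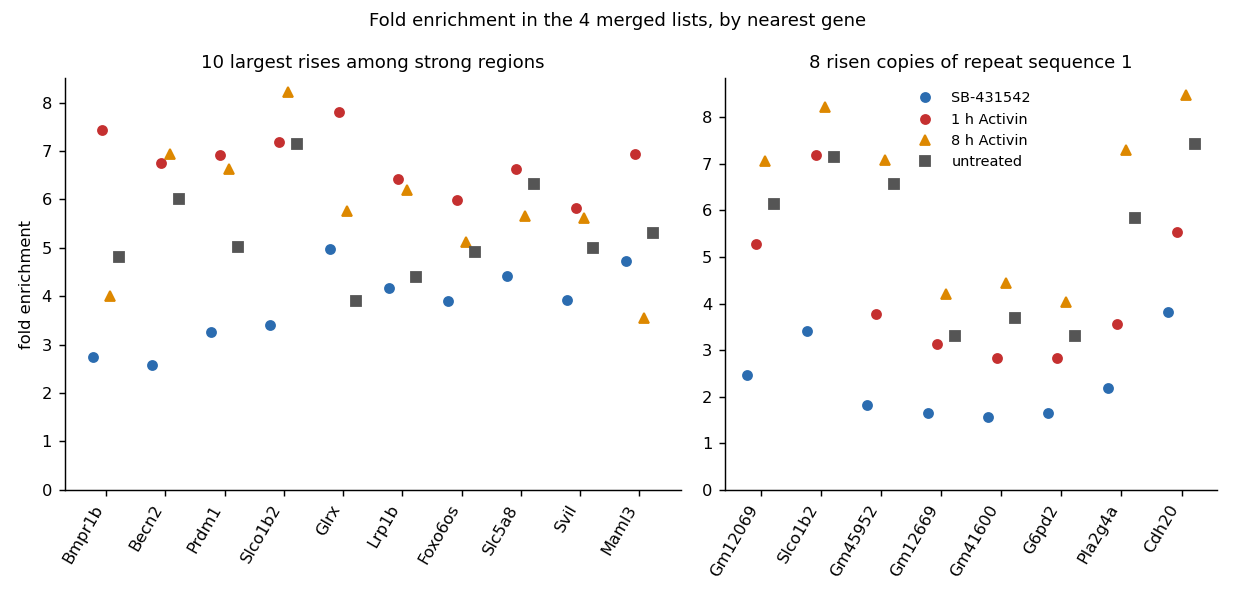
Fold enrichment in each of the 4 merged lists (y, with 1 value per list) for the 10 largest rises among strong regions (left) and the 8 risen copies of repeat family 1 (right), named by nearest gene. In the right panel every 8 h value lies above the 1 h value, as at *Gm12069* with 7.07 and 5.28, while at *Bmpr1b* on the left the 1 h value of 7.44 is the highest.

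At the SBSs of *Lefty1*, *Lefty2* and *Pmepa1* the estimated pileup moved more than the fold enrichment, and none was risen. The log2 differences in fold enrichment at *Lefty1* (0.37) and *Pmepa1* (0.32) still passed 0.24, the 95th percentile of shared regions. That at *Lefty2* (0.08) did not. The pileup, in reads per bp, and the local background were solved from the fold enrichment and its p-value. Both inputs are averages across a peak, while the solution was checked on exact single values only, so these are approximate. The study's methods name no control sample for peak calling, so reads of a peak can count in its own background. The *Lefty1* SBS, 10.0 kb upstream of the TSS, had a background of 40.2 with SB-431542 and 74.5 after 1 h. Its pileup was 195 and 448 at fold enrichments of 4.86 and 6.02, so the scaled log2 difference was 1.40 in pileup and 0.37 in fold enrichment. The *Pmepa1* SBS, 58.2 kb upstream, had fold enrichments of 2.77 and 3.30 on backgrounds of 38.5 and 87.7, and a pileup of 107 and 289, a log2 difference of 1.64.

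Neither SBS had changed in width, at 987 and 1000 bp for *Lefty1* and 1579 and 1577 bp for *Pmepa1*. The *Lefty2* SBS, placed 3.97 kb upstream by its offset in the study, was at 3.57 and 3.60, with a log2 pileup difference of 0.69. At *T*, which encodes Brachyury, the SBS in an intron of *T2* was risen, from 1.96 to 2.97, a scaled ratio of 1.59, with a log2 pileup difference of 1.05. None of the 5 *Eomes* SBSs was risen: SBS 2 was at 3.25 and 3.95 after 1 h, and the others had log2 differences from 0.02 to 0.15. In pileup the 5 ranged from -0.11 to 0.41. *Eomes* is a slower target, and its SBS 2 reached 8.08 by 8 h.

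In fold enrichment, promoters of these genes stayed close to their SB-431542 values. Over the 1000 bp before and 100 bp after the TSS the scaled log2 difference was 0.16 at *Lefty1*, 0.14 at *Nodal*, -0.09 at *Pmepa1*, -0.05 at *Eomes*, 0.05 at *T*, 0.11 at *Smad7* and 0.21 at *Tbx3*, where the value averaged by width was -0.23. At *Wnt3* the promoter and the SBS lay in 1 region, with -0.01, and -0.10 in pileup. In pileup the *Lefty1* promoter went from 234 to 305, a scaled log2 difference of 0.58, and the *Nodal* promoter from 208 to 237, or 0.39, while the others lay from -0.22 to 0.12. *Lefty2* and *Trh* had no shared region there.

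The region with the largest change in pileup of those named was inside *Pmepa1*, 18.3 kb downstream of the TSS in an intron (chr2:173257593-173258870), and it holds the palindrome printed above. Its fold enrichment was 2.01 and 3.39, its background 33.0 and 106 and its pileup 66.4 and 358, a scaled log2 difference of 2.63. The -log10 q of the peak was 5.20 with SB-431542 and 79.9 after 1 h. At 8 h the pileup there was 379 and in untreated cells 169.

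The rest of the *Pmepa1* gene (chr2:173224465-173276533, minus strand) showed the same direction in pileup. Around it 17 shared regions were examined, 9 of them wholly inside the gene. In fold enrichment 3 were at least 1.25-fold higher and 1 lower, but in pileup 7 were at least 2-fold higher, 9 at least 1.5-fold higher and none 1.5-fold lower. A run of 6 of 7 neighbouring regions from chr2:173237961 to 173270708 was at least 2-fold higher in pileup, the only such neighbourhood in the genome by this count. Over all shared regions 120 (0.0590%) rose 2-fold in pileup and 13 (0.00639%) fell.

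In *Pmepa1* the background itself was higher across these introns, at 32.9 and 71.0 for the region 12.2 kb downstream and 36.4 and 79.3 for that 25.8 kb downstream. Fold enrichment, a ratio to that background, was 2.51 and 3.06 at the former and 1.83 and 1.70 at the latter. The promoter peak did not share this, with a background of 121 and 127 and a pileup of 376 and 356.

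**Figure D5:**
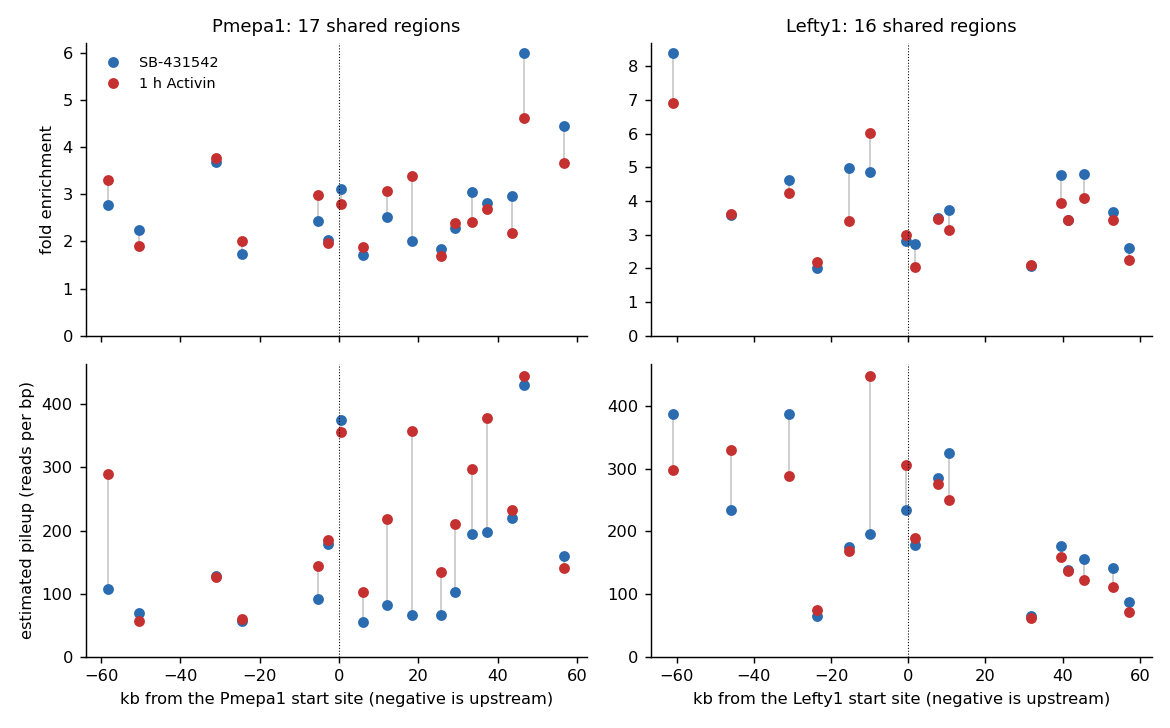
Shared regions around *Pmepa1* (left, 17 regions) and *Lefty1* (right, 16 regions) by distance from the TSS in kb (x, negative is upstream), with fold enrichment (top) and estimated pileup in reads per bp (bottom) for SB-431542 (blue) and 1 h Activin (red), joined by a line. At 18.3 kb into *Pmepa1* the pileup stands at 66.4 and 358, and at the *Lefty1* SBS at 195 and 448, while no other *Lefty1* region differs 2-fold in pileup.

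Around *Lefty1* the change was limited to fewer regions. Of 16 shared regions 1, the SBS, was at least 1.25-fold higher in fold enrichment and at least 2-fold higher in pileup, and 2 were 1.25-fold lower in fold enrichment. One of the lower pair, 15.4 kb upstream, went from 4.98 to 3.42 while its pileup, 175 and 168, was nearly level on a background of 35.2 and 49.0. At *Nodal*, none of 8 regions was 1.25-fold higher and 2 were lower. An upstream region 11.8 kb from the *Nodal* TSS was at 4.65 and 5.48, and one in its intron, 6.01 kb downstream, at 4.53 and 3.03 as its width shrank from 1475 to 438 bp.

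Other large rises in pileup lay near genes with links to the pathway and without. In an intron of *Ldlrad4*, a relative of *Pmepa1* that also restrains TGF-β signalling, a region went from 2.13 to 5.18 in fold enrichment and from 305 to 1349 bp in width. In an intron of *Galntl6*, 131 kb from *Gm2921*, the value went from 1.56 to 3.88, and on to 6.36 at 8 h. A region 204 kb from *Adgrg6*, an adhesion receptor gene, went from 2.60 to 6.12, and to 8.42 at 8 h. In an intron of *Nrcam*, a neural adhesion gene, the fold enrichment was 3.61 and 4.91 while the pileup went from 117 to 249.

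Gene lists were counted over all shared regions within 50 kb of a TSS of their genes, where 1.65% of 95883 regions were at least 1.25-fold higher and 3.99% lower. The 15 early NODAL and Activin targets had 187 regions, 4 higher (2.14%) and 14 lower (7.49%). The median log2 difference of the list was 0.003, against -0.011 over all such regions. In pileup 7 of the 187 regions (3.74%) were at least 2-fold higher, against 0.0563% of all such regions, and these 7 were 6 regions within the *Pmepa1* gene and the *Lefty1* SBS. The largest fall of the list, between *Pald1* and *Nodal*, was from 4.91 to 3.02.

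Delayed targets, 14 genes with 124 regions, had 6 higher (4.84%) and 3 lower (2.42%). The 6 lay by *Eomes*, *Lhx1*, *Foxa2*, *Gata6* and *Mesp1*, transcription factor genes of mesendoderm. The largest, 35.9 kb upstream of *Lhx1*, went from 2.05 to 3.88 and had no peak at 8 h, and the largest fall, 27.1 kb upstream of *Gsc*, from 3.09 to 2.27. Receptors and SMADs had 3 of 132 higher and 5 lower, with the largest rise 12.3 kb upstream of *Tgif1*, a SMAD corepressor gene, a log2 difference of 0.47. The largest fall, -0.50, was in an intron of *Xylb*, 19.5 kb upstream of the receptor gene *Acvr2b*, where the fold enrichment with SB-431542 was 6.35.

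Genes that answer quickly to serum were counted because both states received fresh medium. Immediate early genes had 5 of 249 regions higher and 6 lower, and the region 2.99 kb upstream of *Dusp1*, a MAP kinase phosphatase gene, went from 1.62 to 2.38. Cytoskeleton and SRF or TEAD targets had 2 of 205 higher and 8 lower. The lowest of these, 30.1 kb upstream of *Ankrd1*, went from 4.66 to 3.19.

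In the WNT pathway 7 of 211 regions were higher (3.32%) and 10 lower (4.74%). Upstream of *Dkk1*, which encodes a secreted WNT inhibitor, a region 26.1 kb away went from 1.52 to 2.34, and the *Wnt3a* promoter region from 3.36 to 2.17. BMP targets had 3 of 109 higher and 3 lower, FOX and ZIC factors 0 and 5 of 167, and pluripotency genes 2 and 6 of 166. A region in an intron of *Foxo3* went from 2.97 to 1.84, and one upstream of *Tfcp2l1*, a naive pluripotency factor gene, from 3.22 to 1.91. The comparison lists had 0 higher and 1 lower of 131 for neural genes, 0 and 4 of 113 for blood, muscle and liver genes, and 2 and 1 of 149 for housekeeping genes.

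Neighbourhoods were runs of at least 3 changed regions with gaps of at most 25 kb. With both fold enrichment and width moved by 1.25-fold there was 1 in the genome that opened and 0 that closed. It lay near *Gm34304* on chr12:49222747-49255563, where 3 of 6 shared regions went from 1.58, 1.71 and 1.72 to 1.91, 2.06 and 2.25. All 3 were weak in both lists.

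With fold enrichment alone, a count added after the data were seen, there were 11 upward neighbourhoods with 35 regions and 54 downward ones with 171. Over all shared regions 1.83% were at least 1.25-fold higher and 3.28% lower, so more downward runs are to be looked for from the shares alone. The upward ones with the most members were near *Gm13470* (4 of 7 shared regions) and *1700099I09Rik* (4 of 8), and others lay at *Pmepa1* and between *Adipor2* and *Wnt5b*, where 3 regions went from 1.74, 1.74 and 2.54 to 2.36, 2.33 and 3.74. *Wnt5b* encodes a WNT ligand and *Adipor2* an adiponectin receptor.

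The downward neighbourhoods held stronger regions, as did lower regions in general. The median fold enrichment with SB-431542 was 3.45 over all regions at least 1.25-fold lower and 2.04 over those higher. The largest downward neighbourhood, near *Mttp*, *Trmt10a* and *4930579F01Rik* on chr3:138138069-138175548, had 5 of 8 shared regions, with log2 differences from -0.50 to -0.43. The strongest went from 5.33 to 3.74. *Mttp* encodes the lipid transfer protein that loads lipoproteins. At *Clmn* and *Syne3* all 4 shared regions were lower, from 4.04, 2.46, 2.81 and 3.43 to 3.08, 1.85, 2.13 and 2.30. Runs of 4 were also found at *Stmnd1*, *Efcab6* and *Srrm4*.

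Regions with a peak in only one of the lists were mostly weak. The 27817 gained regions (10.7% of the union) had a median fold enrichment of 1.68 and a median width of 348 bp, and 6.19% had a -log10 q of at least 5. The 28968 lost regions (11.1%) had medians of 1.79 and 277 bp, and 26.7% reached that q. Both sets lay far from promoters, with 0.953% of gained and 1.49% of lost regions within 1 kb of a TSS, against 7.90% of shared ones.

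By fold enrichment, a ranking added after the data were seen, the largest gains were in an intron of *Mcc*, a gene found mutated in colorectal cancers, at 4.38, and 124 kb upstream of *Wdr75*, at 4.20. Both also had a peak at 8 h, at 6.86 and 4.98. A region 9.03 kb upstream of *Spp1*, the osteopontin gene, stood at 3.43 after 1 h and had a peak in no other list. The largest losses, near *Ghdc*, *Nup210*, *Cpm*, *Tmod1* and *Nhs*, had fold enrichments from 3.30 to 3.50 with SB-431542, and each had a peak in untreated cells.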

How the data were processed

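ATAC-seq libraries of P19 cells were paired-end. Per the submitters' processing notes and the study's methods, the authors trimmed adapters with cutadapt 1.9.1, aligned to mm10 with BWA 0.6.2, removed duplicates with Picard, and called broad peaks per state with MACS2 2.1.1.20160309, after merging the replicates. The deposited lists give a fold enrichment (ratio) per peak, its -log10 p-value and -log10 q-value, and a score made from the q-value. These p-values set a peak against its own background and do not compare states.

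Samples were grouped by their labels. Peaks of the 2 lists were joined (overlap of at least 1 bp), the highest fold enrichment and the summed width were taken per list and region, and ratios were divided by their median. Called means past 1.5-fold in fold enrichment or 2-fold in width, without a test. Local background and pileup were solved from the deposited ratio and -log10 p, since the lists give no read counts. TSSs, repeats and sequences came from RefSeq on GRCm38. Python 3.11.15, numpy 2.4.6, pandas 2.3.3 and scipy 1.17.1 were used, and the scripts were tested on simulated data. The SBSs were placed by their offsets from the TSS. Named regions are the SBSs and promoters, the 10 largest strong rises and falls (1 fall is not reported here), the 5 largest changes in width, the 5 gained and lost regions highest in q, the 5 largest neighbourhoods and the extremes of each list. The regions, lists and rules were chosen with earlier results of these data known, and regions named by pileup, steady width, motif, repeat family or the fold enrichment of gained and lost peaks, and the window of the *Pmepa1* SBS, were chosen after the values were seen. Alternatives were scaling, thresholds, a stricter q, the strong set, peak summary and neighbourhood rules.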

Additional observations from a re-analysis of the deposited data

How the results depend on the processing

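Each state had 1 merged list, so no replicate could be left out. No paired analysis was possible because the replicates were merged before peaks were called. Fold enrichment cannot separate a change over the peak from one in its background, and depth is known only as an estimate. Of 88 alternatives to the counts and shares, 48 stayed the same, that is within 1.5 times for counts or within the Wilson interval for shares. One setting, the assembled chromosomes alone, could not move a count, because only those chromosomes were used throughout. Of 160 alternatives for single regions and gene list medians, 119 kept their value and 4 reversed. Keeping it meant moving by less than the SD, or in rank keeping direction. For regions neither risen nor fallen the rank could not count as a move. The cause of the other moves was not tested.

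Without scaling, 122 regions were risen and 553 fallen (strong: 7 and 90), and by estimated pileup 497 were risen (strong: 39 risen, 8 fallen). A threshold of 1.25-fold gave 3727 and 6669 (strong: 178 and 781), and 2-fold gave 15 and 3 (strong: 4 and 2). With strong as the top 5% the counts were 5 and 18, and as the top 20% they were 51 and 101. At steady width, added after seeing the data, they were 72 and 71 (strong: 6 and 8). Peaks with a -log10 q of at least 5 gave 6735 gained, 3700 widened, 4363 narrowed, 325 opened and 437 closed regions. A width threshold of 1.5-fold gave 21253 widened and 18756 narrowed. The fallen share of distal regions was 0.301% among strong regions, where both proximal shares were 0%, and by pileup the distal shares were 0.265% risen and 0.0589% fallen. Opened neighbourhoods numbered 2 with gaps of up to 50 kb, 0 with at least 4 members and 0 by 1.5-fold enrichment alone. By 1.25-fold enrichment alone, added after seeing the data, 11 opened and 54 closed. By the width-weighted mean 4 named regions that were risen or fallen reversed, *Glrx* to -0.08, *Maml3* to -0.02, *Abca8b* to 0.08 and *Me3* to 0.16.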

Other observations

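The CTCF motif, bound by the factor that anchors chromatin loops, stood in 9.14% of regions 1.25 to 1.5-fold lower after 1 h (95% Wilson interval 8.47 to 9.87), in 7.83% of the fallen regions (4.95 to 12.2) and in 5.11% of those within 1.1-fold. In risen regions it stood in 4.15% (2.20 to 7.69). At steady width the shares were 14.1% of 71 fallen and 2.78% of 72 risen regions. Strong regions did not share this order, with 11.8% (7.85 to 17.4) of those at least 1.25-fold higher, 10.1% (8.19 to 12.4) of those lower and 8.29% of all. The AP-1 motif went the other way, with 11.2% of regions 1.25 to 1.5-fold lower and 19.2% of those 1.25 to 1.5-fold higher.

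Change also moved with base composition. With shared regions ranked by GC content in 10 equal parts, the share at least 1.25-fold lower was 2.31% in the part lowest in GC and 4.86% in part 9, and the share at least 1.25-fold higher was 2.91% in the lowest part and 0.772% in the highest. The median GC content was 46.1% in risen regions, 47.9% in fallen regions and 47.3% in all shared regions. Chromosome 14 had the largest share of lower regions, 5.15% of 5109.

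The gained and lost regions highest in q were weak in fold enrichment. The gained ones, near *Tafa1*, *D6Ertd474e*, *Chd7*, *Arl8b* and *Lat2*, had fold enrichments from 1.11 to 1.37 and -log10 q from 163 to 488. The lost ones, near *Dmxl1*, *Bcl9l*, *Gm38404*, *Tnni3k* and *Icam5*, had 1.03 to 1.43 and 37.7 to 44.9. The implied local background exceeded 1000 reads per bp in all 10, a level reached by 38 peaks of the 1 h list and 28 of the SB-431542 list.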
